A study of Homo sapiens with 4 samples.

Results

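Antisense lncRNAs were examined in A549 cells after knockdown of one of them, USP2-AS1. The genes were chosen by name, as the listed genes with a biotype other than protein-coding whose symbol ends in -AS and a digit. The rule gave 34 genes of the 6828 listed. Of these, 31 carried the biotype lncRNA and 3 a pseudogene biotype (TP73-AS1, ABHD11-AS1 and SVIL-AS1). A549 is a cell line of human lung adenocarcinoma epithelium. One group received lentivirus with a control hairpin (shctrl) and the other lentivirus with a hairpin against USP2-AS1 (shUSP2-AS1), with 2 biological replicates each and RNA taken 72 h after infection. Both groups carried a lentiviral hairpin, and no uninfected cells were measured. The sources used here do not say which of the USP2-AS1 hairpins was sequenced.

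The recovered reads on the listed genes numbered 12330115 and 10772788 for shctrl and 11715962 and 14120472 for shUSP2-AS1. These sums cover the listed genes and not whole libraries. A value below is a normalized read count, that is, a number of reads divided by the size factor of its library, so that 1 read is worth 0.966 and 1.10 in shctrl and 1.05 and 0.88 in shUSP2-AS1. The table holds only genes that passed an adjusted p of 0.05 in the authors' comparison of the same libraries. Each antisense gene in it was therefore already selected for a difference, and the counts of changed genes below are a description of that selected table. With 2 libraries against 2, an exact permutation test of a single gene cannot give a two-sided p below 0.333. Adjusted p values below come from limma fitted over 6812 genes with Benjamini-Hochberg adjustment, and a gene was called when that p was below 0.05 and the log2 fold change was at least 1 in size. Rose and fell are used of genes with an adjusted p below 0.05, called or not. The epithelial keratins KRT7, KRT8, KRT18 and KRT19 were listed, with mean values in shctrl of 56552, 83641, 30019 and 3476, and EPCAM and CDH1 were not. The log2 fold changes of these 4 keratins were -0.49, -0.77, -1.05 and 0.75, and KRT18 was called lower. Of 9 markers of blood, endothelial and fibroblast cells, only COL1A1 was listed, and it was called higher, from 261 and 293 in shctrl to 530 and 618 in shUSP2-AS1 (log2 fold change 1.05 ± 0.105 SE, adjusted p = 5.18e-08, limma). The part of these marker changes in the results below was not tested.

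An antisense lncRNA is transcribed from the strand opposite to another gene, its sense gene, and usually takes that gene's symbol. Where the 5′ ends of both genes lie toward each other, the pair is called head to head here, whether the genes lie apart or overlap at their 5′ parts. Where such starts lie close together and point away from each other, a single open region can serve both. Of the 11 head-to-head pairs with a listed sense gene, 3 lie apart. In the other 8 the genes overlap, so each start lies within the partner gene. Where the ends meet, the pair is arranged tail to tail and the transcripts can overlap in their last exons. Antisense lncRNAs are known to act on their sense gene in some cases and on unrelated RNAs or proteins in others. The library protocol as described did not mark the strand of the RNA, and the strand setting of the read counting is not given in the sources used here. Reads from exons that a gene shares with its antisense partner therefore cannot be told apart.

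The targets of the hairpins show which part of USP2-AS1 was attacked. The sequences below are the published shRNA oligonucleotides, written 5′ to 3′ without capitals because no part of them is singled out.
shUSP2-AS1#1: taatctcagcgagatgaagag
shUSP2-AS1#2: gcactcagttgtacttcttta
sh-control: cctaaggttaagtcgccctcg
In GRCh38, the first target matched chr11:119498750-119498770 and the second chr11:119499384-119499404, each once on the plus strand of the autosomes, X and Y. Both lie in exon 4 of the transcript ENST00000498979. GENCODE release 44 gives USP2-AS1 59 transcripts, of which 8 contain the first target and 2 contain the second. Most transcripts of the gene in that release thus hold neither target. Reads from such transcripts may count toward the gene, though the reads were counted on another annotation. The control sequence had no exact match.

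The space between the starts of a head-to-head pair is shown for the closest of the pairs that do not overlap, since both genes of each pair fell together. The gaps are taken from GRCh38 on the plus strand, 5′ to 3′ toward the antisense gene, at chr21:32393013-32393129 (117 bases, between URB1 and URB1-AS1) and chr2:3558334-3558473 (140 bases, between RNASEH1 and RNASEH1-AS1).
URB1-AS1 gap: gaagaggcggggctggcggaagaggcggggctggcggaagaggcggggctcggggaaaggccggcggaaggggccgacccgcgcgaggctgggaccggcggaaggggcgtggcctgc
RNASEH1-AS1 gap: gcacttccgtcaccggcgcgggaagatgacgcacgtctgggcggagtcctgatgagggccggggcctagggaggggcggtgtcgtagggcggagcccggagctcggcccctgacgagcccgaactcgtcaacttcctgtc
The share of G and C was 78.6% in the first and 70.0% in the second. Neither gap lies in an annotated UTR, and neither holds CACGTG or the E2F motifs searched below, which would stand in capitals.

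USP2-AS1 (ENSG00000245248, chr11:119364359-119526664, plus strand) was the antisense gene with the largest decrease in the main fit. Its value was 23.2 and 24.2 in shctrl and 2.10 and 6.16 in shUSP2-AS1. Both knockdown libraries lay below both control libraries. The mean fell from 23.7 ± 0.698 to 4.13 ± 2.87 (SD, n = 2 each). The log2 fold change was -2.39 ± 0.562 (SE, adjusted p = 0.000597, limma), or 5.23-fold lower. It is the difference of group means of log2(value + 1) and not the log2 ratio of the means just given. The 95% confidence interval of the log2 fold change was -3.57 to -1.20. The direction matches the label of the hairpin. The estimate rests on 24 and 22 reads in shctrl and on 2 and 7 reads in shUSP2-AS1, so its size is known only loosely. Without shUSP2-AS1 replicate 1 it was -1.78 and without replicate 2 it was -2.99. TMPO-AS1 fell by more without shUSP2-AS1 replicate 1 (-2.06) and with a pseudocount of 5 (-1.86 against -1.69 for USP2-AS1). The sense gene of USP2-AS1, USP2, which encodes a deubiquitinating enzyme, is not in the table. THY1, a cell surface glycoprotein gene, lies on the opposite strand within the USP2-AS1 interval and shares 232 exon bases with it. THY1 moved the other way, from 182 ± 8.53 to 496 ± 49.0 (SD, n = 2 each, log2 fold change 1.44 ± 0.112 SE, adjusted p = 1.86e-09, limma).

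Across the 34 antisense genes, 33 had a mean value of at least 10 and were tested. Of these, 17 were called, 8 higher (RUNDC3A-AS1, PLBD1-AS1, NECTIN3-AS1, FAM13A-AS1, IGFL2-AS1, ABHD11-AS1, FLG-AS1 and TNFRSF10A-AS1) and 9 lower (USP2-AS1, FGF14-AS2, PRC1-AS1, TMPO-AS1, ATP2A1-AS1, LIMD1-AS1, PDCD4-AS1, VPS9D1-AS1 and HOXB-AS3). Among all 6812 genes tested, 29.7% were called, 16.1% higher and 13.5% lower. With RLE scaling the balance over all genes turned, from 1098 higher and 922 lower to 934 higher and 1143 lower, while the antisense genes had 7 and 9. With at least 10 reads required in every library the antisense genes had 7 and 4, and under a test against a fold change of 2 they had 3 and 1. USP2-AS1, FGF14-AS2, PRC1-AS1, LIMD1-AS1 and PLBD1-AS1 had a mean below 10 in the group where they are low and passed the filter through the other group. The share of antisense genes called was 51.5%, that of the 313 other noncoding genes with a biotype 53.0% and that of 6362 protein-coding genes 27.6%. Level goes with these shares. Among genes with a mean value under 100, 13 of 14 antisense genes (92.9%) and 91.2% of all genes tested were called. At a mean of 100 or more, 4 of 19 antisense genes (21.1%) and 22.4% of all were called. Within each level the antisense genes were thus called about as often as the rest of the table. Of the 33 log2 fold changes, 15 were above 0 (45.5%, against 50.6% of all genes tested) and 18 below. Their median was -0.54, against 0.19 over all genes tested. The median of the antisense genes lies at the edge of the gap that these 33 genes leave around 0, between -0.52 and 0.42. All genes tested leave a smaller gap, with changes down to 0.105 in size at a mean of 100 or more.

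**Figure D1:**
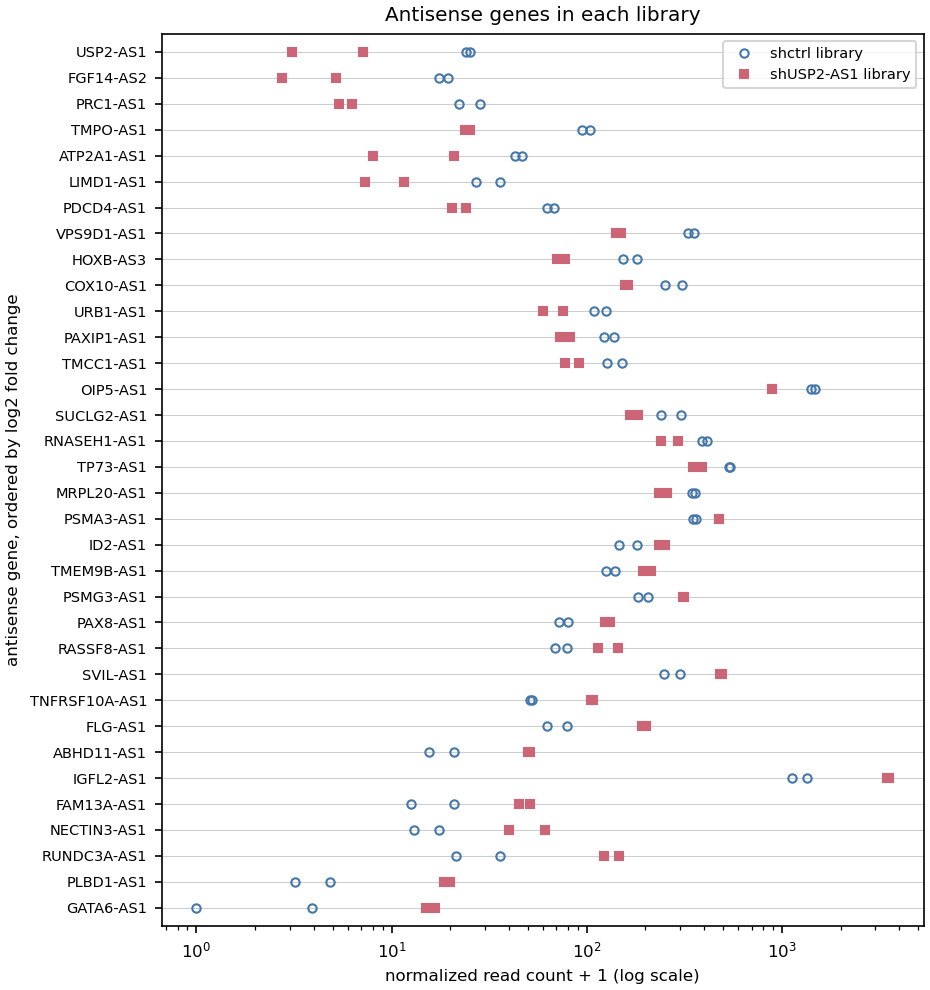
Normalized read count plus 1 (x axis, log scale) of the 34 antisense genes (y axis, ordered by log2 fold change, untested GATA6-AS1 last) in each of 2 shctrl libraries (open circles) and 2 shUSP2-AS1 libraries (filled squares). The groups do not overlap for any of the 34 genes, as for 99.99% of the listed genes, and USP2-AS1 stands at the top with 2.10 to 24.2.

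The groups did not overlap for any of the 34 genes. This was so for 99.99% of the 6828 listed genes, as the table was selected on this contrast. Read depth differed widely between the antisense genes. Their mean value over the 4 libraries ran from 8.19 for GATA6-AS1 to 2374 for IGFL2-AS1, with a median of 102 against 747 for the protein-coding genes. Per kilobase of gene length the medians were 33.3 and 138. All 34 genes together took 0.0599% and 0.0611% of the reads on listed genes in shctrl and 0.0710% and 0.0702% in shUSP2-AS1. Of their 7381 and 6578 reads in shctrl, IGFL2-AS1 alone held 1392 and 1023. In shUSP2-AS1 it held 3374 and 3952 of 8320 and 9906. At least 100 reads in every library were found for 13 antisense genes, and fewer than 10 in at least 1 library for 7. The standard error of the log2 fold change ran from 0.194 to 0.617 among the 14 antisense genes with a mean under 100 and from 0.0646 to 0.187 among the 19 others.

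**Figure D2:**
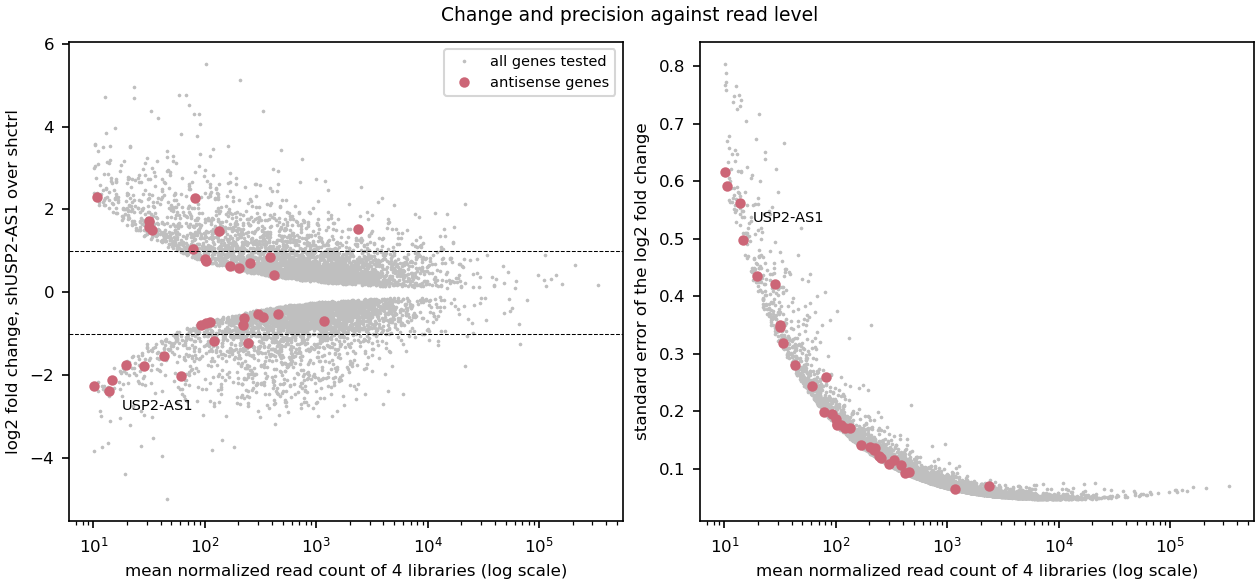
Log2 fold change (left y axis) and its standard error (right y axis) against the mean normalized read count of the 4 libraries (x axes, log scale) for all 6812 genes tested (grey) and the 33 antisense genes tested (red), with dashed lines at log2 fold changes of 1 and -1. No gene of low level has a small change, as the table lists no such genes, and the standard error of the antisense genes is highest at low level (0.617) and lowest for OIP5-AS1 (0.0646) and IGFL2-AS1 (0.0703).

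TMPO-AS1 lies head to head with TMPO, which encodes lamina-associated polypeptide 2. TMPO-AS1 had values of 93.7 and 103 in shctrl and 24.2 and 22.9 in shUSP2-AS1. It fell by 2.02 on the log2 scale (SE 0.244, adjusted p = 5.55e-07, limma). TMPO fell as well, from 2824 ± 21.2 to 1137 ± 44.2 (SD, n = 2 each, log2 fold change -1.31 ± 0.0579 SE, adjusted p = 1.08e-12, limma). The log2 ratio of TMPO-AS1 to TMPO was -4.91 and -4.75 in shctrl and -5.54 and -5.53 in shUSP2-AS1, so the antisense gene fell by more than its partner and the ratios did not overlap. The pair shares 646 exon bases, 19.2% of the exons of TMPO-AS1. PRC1-AS1 lies within PRC1, a gene for cross-linking of spindle midzone microtubules, and shares 38.0% of its exons with it. Its log2 fold change was -2.11 ± 0.497 and that of PRC1 was -2.74 ± 0.542 (SE). Both were low in counted reads, at 5 to 25 per library for PRC1-AS1 and 2 to 41 for PRC1. AC068831.6, a further gene that spans PRC1-AS1 on the opposite strand, had -1.94 ± 0.227 (SE). It lies on the strand of PRC1 and overlaps it. The sources used here do not say how reads that fit both were counted, so the level of PRC1 is uncertain.

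OIP5-AS1, known also as a conserved and abundant cytoplasmic lncRNA, was the antisense gene with the second highest level. Its values were 1409 and 1480 in shctrl and 890 and 886 in shUSP2-AS1. It fell by 0.70 on the log2 scale (SE 0.0646, adjusted p = 1.79e-08, limma), short of the threshold of 1. OIP5, a gene of centromere loading that meets it tail to tail, fell by 1.53 (SE 0.263, adjusted p = 3.16e-05, limma). Here the sense gene was the weaker in reads, at 86.6 ± 4.96 against 1445 ± 50.6 in shctrl (SD, n = 2 each).

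Besides OIP5-AS1, 5 antisense genes with a listed sense gene fell less than 2-fold, and each of their sense genes fell as well. COX10-AS1 fell by 0.81 and COX10, an enzyme of heme A synthesis, by 0.93 on the log2 scale. The decreases were 0.59 for RNASEH1-AS1 and 0.47 for RNASEH1, the nuclease that cuts RNA in RNA-DNA hybrids. MRPL20-AS1 changed by -0.52 and MRPL20, a protein gene of the mitochondrial ribosome, by -0.34. For URB1-AS1 and URB1, a ribosome biogenesis gene, the log2 fold changes were -0.80 and -0.38. PAXIP1-AS1 and PAXIP1, a gene of the DNA damage response and histone methylation complexes, had -0.75 and -0.79. All 10 of these genes had an adjusted p below 0.05 in limma and none was called. The URB1, RNASEH1 and PAXIP1 pairs are arranged head to head without overlap, at gaps of 117, 140 and 323 bases, and share no exon bases. LIMD1-AS1, which shares 69.6% of its exons with the LIM domain gene LIMD1, fell by 1.77 while LIMD1 fell by 0.52 (SE 0.435 and 0.0842).

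Antisense genes that rose were led in level by IGFL2-AS1, the most abundant of the 34. Its values were 1345 and 1124 in shctrl and 3548 and 3479 in shUSP2-AS1. The mean went from 1235 ± 156 to 3514 ± 48.5 (SD, n = 2 each, log2 fold change 1.51 ± 0.0703 SE, adjusted p = 2.18e-12, limma), or 2.86-fold higher. IGFL2, a member of the IGF-like secreted family, lies 27729 bases away and rose from 45.6 ± 8.51 to 218 ± 1.84 (log2 fold change 2.24 ± 0.184 SE, adjusted p = 3.79e-09, limma). The pair is arranged tail to tail without overlap. On the opposite strand, IGFL2-AS1 overlaps 3 other listed genes, IGFL1P1, AC006262.1 and AC007785.1, with log2 fold changes of 1.29, 1.43 and 1.52. Per kilobase, IGFL2-AS1 stood at 2469% and 1583% of IGFL2 in shctrl and at 1191% and 1154% in shUSP2-AS1.

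RUNDC3A-AS1 had the largest increase among antisense genes whose mean value reached 50. It rose from 20.3 and 35.2 in shctrl to 122 and 146 in shUSP2-AS1 (log2 fold change 2.28 ± 0.258 SE, adjusted p = 2.56e-07, limma). RUNDC3A, a RUN domain gene head to head with it, rose by nearly the same amount (2.38 ± 0.254 SE). The genes overlap, with starts 6902 bases apart. The log2 ratio of the pair was 0.14 and 0.80 in shctrl and 0.14 and 0.59 in shUSP2-AS1, so the ratios overlapped between groups. FLG-AS1 spans the filaggrin locus of epidermal differentiation genes. It rose from 61.8 and 78.0 to 190 and 202 (log2 fold change 1.48 ± 0.170 SE, adjusted p = 2.96e-07, limma), with no overlap between the groups. FLG, HRNR and FLG2, which lie within its interval on the opposite strand, had log2 fold changes of 0.94, 1.79 and 2.11. FLG shares 1587 exon bases with FLG-AS1, 10.6% of its exons. TNFRSF10A-AS1 had values of 50.2 and 51.7 in shctrl and 104 and 107 in shUSP2-AS1 (log2 fold change 1.03 ± 0.199 SE, adjusted p = 9.92e-05, limma). TNFRSF10A, a death receptor for TRAIL, rose by 0.76 ± 0.0671 (SE), and shares 224 exon bases, 35.2% of the exons of TNFRSF10A-AS1, at values of 743 ± 15.4 in shctrl (SD, n = 2). NECTIN3-AS1, at 11 to 68 reads per library, rose by 1.71 ± 0.349 (SE), and NECTIN3, a cell adhesion gene, by 1.19 ± 0.0645. TMEM9B-AS1, RASSF8-AS1 and SVIL-AS1 rose by 0.62, 0.80 and 0.84 without being called. Their sense genes TMEM9B, RASSF8 and SVIL, the last for an actin-binding membrane protein, rose by 0.96, 0.93 and 0.64. TNFRSF10A-AS1 was just inside the threshold of 1 and was not called with RLE scaling (0.92) or a pseudocount of 5 (0.98). SVIL-AS1, at 0.84, was the nearest outside it among those that rose. Among those that fell, HOXB-AS3 at -1.17 and COX10-AS1 at -0.81 stood on the 2 sides.

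In 3 of the 21 pairs whose sense gene is listed under the shared symbol, the partners moved in opposite directions. PDCD4-AS1 fell from 66.7 and 61.5 to 23.1 and 19.4 (log2 fold change -1.55 ± 0.280 SE, adjusted p = 5.09e-05, limma). PDCD4, an inhibitor of translation initiation known as a tumor suppressor, rose from 569 ± 20.3 to 1086 ± 5.98 (SD, n = 2 each, log2 fold change 0.93 ± 0.0726 SE, adjusted p = 1.99e-09, limma). The starts of the pair lie 438 bases apart and their exons share no base in GENCODE release 44. VPS9D1-AS1 fell from 329 and 355 to 148 and 140 (log2 fold change -1.24 ± 0.122 SE, adjusted p = 4.16e-08, limma). VPS9D1, in which it lies, rose from 260 ± 9.04 to 467 ± 10.4 (SD, n = 2 each, log2 fold change 0.85 ± 0.0996 SE, adjusted p = 4.13e-07, limma). VPS9D1-AS1 was the higher of the pair per kilobase in both shctrl libraries (247% and 254% of VPS9D1) and the lower in both shUSP2-AS1 libraries (59.6% and 58.0%). The pair shares 518 exon bases, 29.5% of the exons of VPS9D1-AS1. PSMA3-AS1 rose from 352 and 360 to 475 and 478 (log2 fold change 0.42 ± 0.0921 SE, adjusted p = 0.000331, limma), and PSMA3, a subunit of the proteasome core, fell by 0.42 on the log2 scale (SE 0.0633). Their exons share no base.

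**Figure D3:**
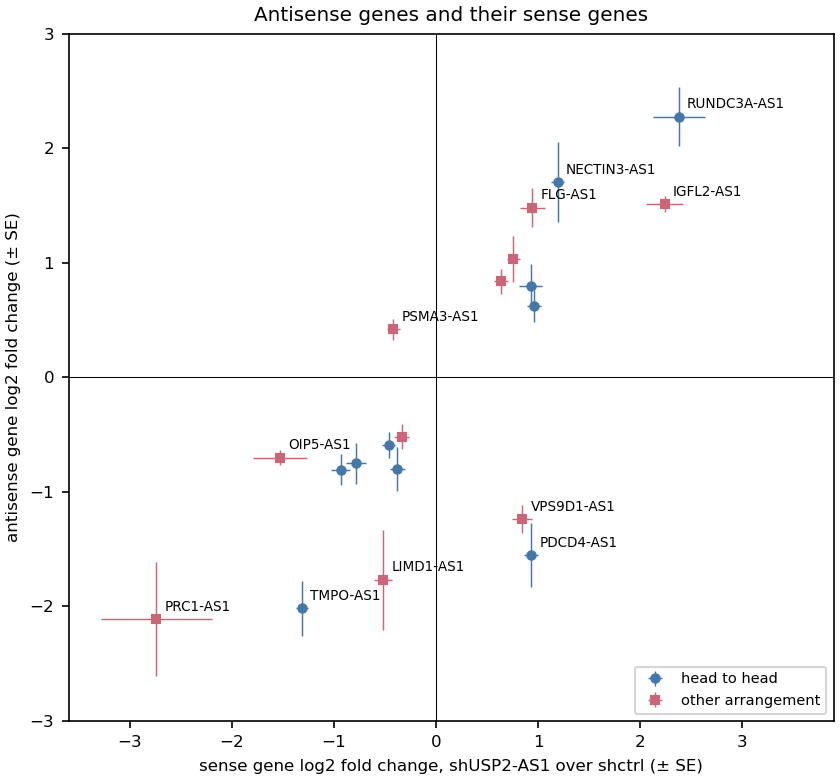
Log2 fold change of the antisense gene (y axis) against that of its sense gene (x axis), both shUSP2-AS1 over shctrl with SE bars, for the 20 pairs with both genes tested, arranged head to head (circles) or otherwise (squares). Of these, 17 lie in the quadrants of equal direction and PDCD4-AS1, VPS9D1-AS1 and PSMA3-AS1 lie outside them.

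The other pairs moved together. Of the 20 pairs with both genes tested, 17 moved the same way, 8 higher and 9 lower. Across these 20 pairs the log2 fold changes had a Pearson correlation of 0.77 and a Spearman correlation of 0.75, as a description of genes that share libraries and in part exons. Both partners were called in 5 pairs, and each of the 5 moved together, where 29.7% of all genes tested were called. In one of them, PRC1-AS1 and PRC1 had means of 4.83 and 6.33 in shUSP2-AS1 and passed the filter through shctrl. By the exons of GENCODE release 44, 12 of these 20 pairs share exon bases, and 11 of the 12 moved the same way, as did 6 of the 8 that share none. That annotation is not the one the reads were counted on. Its exon length was within 10% of the table's gene length for 17 of the 21 antisense genes with a listed sense gene, and was 122 bases against 4995 for SVIL-AS1 and 22370 against 12673 for OIP5-AS1. By arrangement, 9 of the 10 tested head-to-head pairs moved the same way. Per kilobase, the antisense gene was below its sense gene in all 4 libraries in 15 of the 21 pairs and above it in 2 (OIP5-AS1 and IGFL2-AS1).

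GATA6-AS1, head to head with the transcription factor gene GATA6, was too low to be tested. It had 3 and 0 reads in shctrl and 15 and 16 in shUSP2-AS1. The ratio of size-scaled reads was 9.63, with an exact 95% interval of 3.0 to 49.2 that covers counting error only. GATA6 rose from 67.0 ± 20.1 to 120 ± 22.5 (SD, n = 2 each, log2 fold change 0.85 ± 0.220 SE, adjusted p = 0.00131, limma).

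For 13 antisense genes no listed gene carried the symbol without its antisense ending. One of them, HOXB-AS3, is named after the HOXB cluster of patterning genes and not after a single gene, and it was the best measured of those that were called. Its values were 153 and 180 in shctrl and 69.4 and 76.6 in shUSP2-AS1 (log2 fold change -1.17 ± 0.171 SE, adjusted p = 5.02e-06, limma). HOXB6 lies within its interval on the opposite strand and had a log2 fold change of -1.05 ± 0.116 (SE). Whether HOXB6 and HOXB-AS3 share exon bases was not examined. TP73-AS1, a pseudogene transcript beside the TP73 locus, had values of 534 and 540 in shctrl and 391 and 349 in shUSP2-AS1, a decrease of 0.54 on the log2 scale (SE 0.0934). PSMG3-AS1 rose by 0.69 (SE 0.118, adjusted p = 2.76e-05, limma). FGF14-AS2, ATP2A1-AS1, FAM13A-AS1, ABHD11-AS1 and PLBD1-AS1 were called on 2 to 56 reads per library, with log2 fold changes of -2.28, -1.78, 1.57, 1.5 and 2.29. SUCLG2-AS1 and TMCC1-AS1 fell by 0.63 and 0.72, and ID2-AS1 and PAX8-AS1 rose by 0.59 and 0.75, none of them called. Of 60 names on a list of antisense and related lncRNAs known from cancer cell studies, 4 were listed (OIP5-AS1, VPS9D1-AS1, TMPO-AS1 and PSMG3-AS1), and VPS9D1-AS1 and TMPO-AS1 were called, both lower, where 13.5% of all genes tested were called lower. With 4 genes this share says little.

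Promoters of 22 antisense genes were found in the RefSeq table of GRCh38.p14, which gives 250 bases before and 50 after the start of the RefSeq gene (the first promoter given for each gene was used). USP2-AS1 was not among these 22 genes, so its promoter was not searched. The window holds the gene start of the deposited table for 12 of the 22 and lies away from it for 10, by up to 46328 bases between starts for HOXB-AS3. CACGTG, the E-box that Myc and Max bind, was present in 1 of the 22 (4.55%), against 7.43% of all 27305 promoters and 10.3% of the promoters of listed genes. Any of the E2F-type motifs TTTCCCGC, TTTCGCGC, TTTGCCGC and TTTGGCGC, on either strand, was present in 2 of the 22 (ATP2A1-AS1 and RASSF8-AS1, 9.09%), against 3.33% of all promoters and 5.38% of those of listed genes. The single E-box is in the promoter of OIP5-AS1, chr15:41283740-41284039 on the plus strand, shown with the motif in capitals.
OIP5-AS1 promoter: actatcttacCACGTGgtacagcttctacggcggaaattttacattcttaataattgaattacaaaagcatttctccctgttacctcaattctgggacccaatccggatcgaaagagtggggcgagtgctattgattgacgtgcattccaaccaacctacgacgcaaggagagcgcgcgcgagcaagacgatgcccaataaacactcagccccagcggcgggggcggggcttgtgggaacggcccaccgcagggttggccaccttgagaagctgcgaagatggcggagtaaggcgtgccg
A match of letters does not show binding. MYC itself fell from 2947 ± 26.7 to 2136 ± 44.8 (SD, n = 2 each, log2 fold change -0.46 ± 0.0531 SE, adjusted p = 2.86e-07, limma).

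Around USP2-AS1, 14 other genes within 1 Mb of its interval were listed. Of these, 3 were called higher (PDZD3, THY1 and TRIM29) and 2 lower (DDX6 and H2AX), shares near the 16.1% and 13.5% of all genes tested. H2AX, the histone variant phosphorylated at DNA breaks, went from 3103 ± 80.8 to 816 ± 59.7 (SD, n = 2 each, log2 fold change -1.93 ± 0.0639 SE, adjusted p = 3.27e-14, limma). DDX6, an RNA helicase of mRNA decay bodies, changed by -1.29 ± 0.0638 and TRIM29 by 1.47 ± 0.178 (SE). PDZD3 had 3.65 ± 1.06 in shctrl and 21.0 ± 6.02 in shUSP2-AS1, and passed the filter through shUSP2-AS1. The nearest listed gene upstream, RNF26, fell by 0.70 (SE 0.0790). Of the 9 listed genes that end before the start of USP2-AS1, 4 had a log2 fold change above 0 and 5 below. The 4 that lie beyond its end, NECTIN1, TRIM29, TLCD5 and ARHGEF12, were above 0, at 0.32 to 1.47, as were 50.6% of all genes tested.

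**Figure D4:**
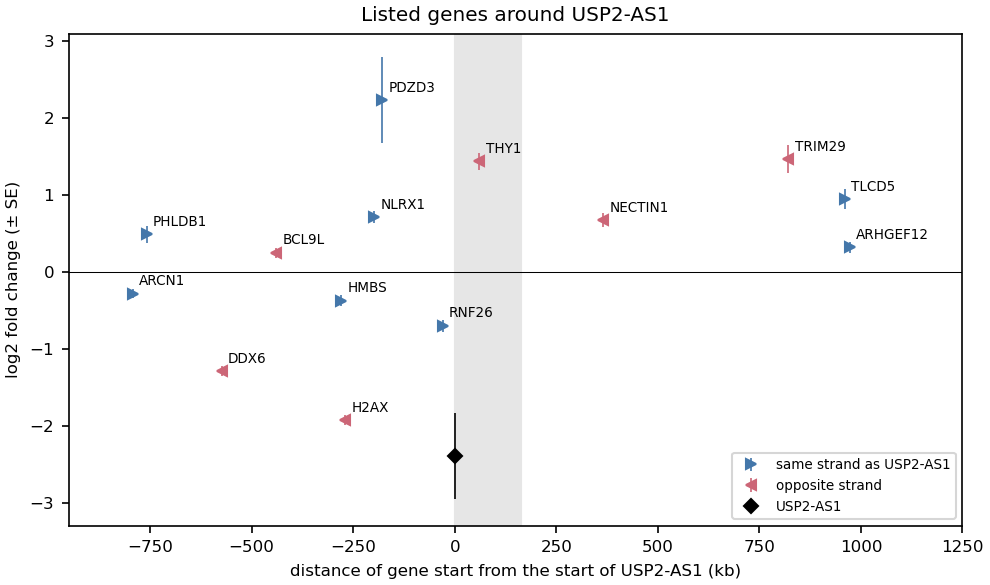
Log2 fold change with SE bars (y axis) of USP2-AS1 (diamond) and the 14 listed genes within 1 Mb of it, placed by the distance in kb of their start from the start of USP2-AS1 (x axis), on its strand (right-pointing) or the opposite strand (left-pointing), with the USP2-AS1 interval shaded. THY1 within the interval is at 1.44 while USP2-AS1 is at -2.39.

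A list of 14 genes was written around USP2-AS1, with the E2F1, Myc and G3BP1 genes, their relatives and senescence genes, and 7 of them were listed. E2F1, the cell cycle transcription factor, fell from 1280 and 1241 in shctrl to 276 and 304 in shUSP2-AS1 (log2 fold change -2.12 ± 0.0828 SE, adjusted p = 2.36e-13, limma). CDKN1A, the cell cycle inhibitor p21, rose by 1.52 ± 0.0491 (SE). G3BP1, an RNA-binding protein of stress granules, changed by -0.35 and was not called. The RNA of CXCL8 and IL6, which encode the secreted factors IL-8 and IL-6, fell by 1.23 and 1.03 at 72 h. The paper reports higher extracellular IL-6 and IL-8 protein by ELISA after the knockdown in A549, at a later time. Protein was not measured in these libraries. USP2, E2F2, E2F3, G3BP2, MAX, RB1 and CDKN2A are not in the table.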

How the data were processed

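RNA-seq libraries of A549 cells (2 shctrl and 2 shUSP2-AS1) were made from poly-A RNA. Per the submitters' processing notes, the tools were HISAT2 2.0.5, featureCounts 1.5.0-p3 and DESeq2 1.20.0 with hg38. The paper states that DESeq2 compared the groups from raw read counts. Other roles and the strand setting are not given in the sources used here. The authors deposited a signal for every gene in each library (reads over the library's size factor) in a table of genes with an adjusted p-value below 0.05, and the deposited p-value was used only to test that selection (0 listed genes at 0.05 or more). The log2 fold changes and p-values of the authors' own comparison were not used. The labels do not name the columns exactly, and columns were matched by their control or knockdown name and replicate number. No columns of other samples were present (0).

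Each value was turned back into reads with the step that 1 read makes in its library, and 100% came out whole within a relative tolerance of 1e-05. The main test was limma 3.58.1 (R 4.3.3, lmFit and eBayes with trend) on log2(value + 1), leaving out genes with a mean below 10. Because 1 is added to each value, fold changes of low genes are understated. edgeR 4.0.16 (2022 genes called) and DESeq2 1.42.0 (2021) on the recovered reads were alternatives to the 2020 called by limma. The methods were tested on simulated data. Sense genes were matched by symbol. Arrangement came from the table's coordinates and exons from GENCODE release 44, which held all 34 identifiers.

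Genes named are USP2-AS1, called antisense genes with a mean of at least 50 and no overlap between groups (up to 15 in each direction), the most abundant, opposite pairs (up to 8), their sense genes, listed genes of a list written around USP2-AS1 and neighbours of USP2-AS1. Other antisense genes named by pair, arrangement or lists were chosen after their values were seen. The members and lists were chosen with earlier results of these data known. Cultures were biological replicates per the paper's methods. Alternatives were other scalings, filters, pseudocounts, a replicate block, count tests and each library left out. The values of some genes that these rules would name are left out of the text.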

Additional observations from a re-analysis of the deposited data

How the results depend on the processing

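The table's selection, the 2 libraries per group and the shared reads of overlapping genes limit all counts above. USP2-AS1 was called lower with every scaling, pseudocount, block and count test tried, at -1.69 with a pseudocount of 5 and -2.68 with one of 0.1. Leaving out a library leaves 1 in its group, which is then assumed to vary like the other group, so these fits show values and little about stability. USP2-AS1 ran from -2.99 to -1.78, the counts of called antisense genes were 7 to 9 higher and 8 to 9 lower with each library left out, and 17 to 18 pairs moved the same way. Requiring 10 reads in every library left 7 called higher and 4 lower (27.2% of all genes tested were then called), since only 27 antisense genes were then tested and USP2-AS1, FGF14-AS2, PRC1-AS1, ATP2A1-AS1, LIMD1-AS1 and PLBD1-AS1 were not. FGF14-AS2 and PLBD1-AS1 fell under the filter when a library of the group where they are high was left out, and GATA6-AS1 was called higher without the filter (3.01) and without shctrl replicate 2 (2.03), where it rests on 1 control library and passes the filter through its high group. A limma test against a fold change of 2 called 3 higher and 1 lower (TMPO-AS1), beside 15.6% of all genes tested (541 higher and 523 lower), with USP2-AS1 at an adjusted p of 0.0723, and with no fold change threshold 15 were higher and 18 lower, as were 3449 and 3362 of all 6812 genes. Among the 14 antisense genes with no listed gene overlapping on the opposite strand, 3 were called higher and 2 lower, near the 29.7% called of all genes. Of the 24 tested overlaps with a listed gene on the opposite strand, 20 moved the same way, and of the 16 pairs with both means of at least 50, 14 did. TNFRSF10A-AS1 fell short of the threshold with RLE scaling (0.92) and a pseudocount of 5 (0.98). RLE scaling moved the median of all genes by -0.118 and the share of higher among all calls from 54.4% to 45.0%. The replicate numbers did not pair the samples (correlation of their differences -0.0397), and a fit with the replicate block called 8 higher and 9 lower, with 17 pairs moving together and USP2-AS1 at -2.39. Among the other alternatives run, no antisense gene changed its call.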

Other observations

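Noncoding genes whose symbols end otherwise lie outside the naming rule but have a like relation to a neighbour. KRT7-AS, opposite the keratin gene KRT7, changed by -0.43 on the log2 scale (SE 0.0962, adjusted p = 0.000386, limma), and KRT7 by -0.49 (SE 0.0572). Of the divergent transcripts with the suffix -DT, ITGB1-DT rose from 136 to 592 in mean value (n = 2 each, log2 fold change 2.12, SE 0.114, adjusted p = 1.49e-11, limma). These genes were chosen after their values were seen.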
